A study of Mus musculus with 360 samples.

Results

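The genes described here encode the subunits of the oxidative phosphorylation machinery of mitochondria. They were taken by gene symbol: NADH dehydrogenase subunits (Nduf genes followed by a, b, c, s or v and a digit), Sdha to Sdhd, Uqcr genes, Cox4 to Cox8 genes, Atp5 genes, and the mt-Nd, mt-Co, mt-Cytb and mt-Atp genes of mitochondrial DNA. This rule took 97 of the 48440 genes in the matrix, 84 encoded in the nucleus and 13 in mitochondria, and left out 6 rows named as pseudogenes. Of the 97 genes, 86 had at least 1 unique molecular identifier (UMI, a tag that counts an RNA molecule once), and 80 reached 10 CPM (counts per 1000000 UMIs) in at least 1 genotype and are called measured below.

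The cells came from the cochlea of mice that carried Fbxo2CreERT2, a tamoxifen-inducible Cre recombinase named for Fbxo2, together with a tdTomato reporter at Rosa26. Control animals had the genotype Fbxo2CreERT2::Rosa26-tdTomato, and GAP animals had the genotype Fbxo2CreERT2::Rosa26-tdTomato::Rosa26-GAP, in which Cre also switches on Gfi1, Atoh1 and Pou4f3. All animals received tamoxifen at 3 weeks of age, and their cells were dissociated with papain at 5 weeks, sorted singly into plates and made into SMART-MATQ libraries of total RNA. The data hold 180 cells of each genotype, under 4 title letters: A with 91 and B with 89 control cells, C with 92 and D with 88 GAP cells. Cells were sorted on tdTomato and EpCAM, an epithelial surface protein. No label ties a cell to an animal, so a genotype was treated as 1 sample, genotypes were compared without a test, and the 95% intervals cover counting error only. Each letter holds 1 genotype, so letter and genotype cannot be told apart, and results are also given by letter or for the 4 pairings (C or D over A or B).

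Oxidative phosphorylation passes electrons from NADH and succinate through complexes I, II, III and IV to oxygen, pumps protons across the inner mitochondrial membrane, and uses their return through complex V, the ATP synthase, to make ATP. Complexes I, III, IV and V are built from subunits of both genomes, complex II from nuclear genes alone. Hair cells, the mechanosensory cells of the cochlea, are rich in mitochondria, and supporting cells surround them. Nuclear subunit genes are known targets of the transcription factors NRF1, GABP (an ETS family factor) and YY1, and the mitochondrial genes are transcribed as long precursors from mitochondrial DNA.

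The promoters of the nuclear members carried short sequences tied to these factors more often than promoters in general. Promoter windows of 250 bases before to 50 bases after the start, from RefSeq on build GRCm38.p6, were found for 69 of the 84 nuclear members and gave 75 windows. The NRF1 core CGCATGCG was in 9 of the 75 windows (12%), against 1.87% of all 32851 windows. The ETS core CCGGAAG was in 16 (21.3%), against 8.86%, and the YY1 core AAGATGGCG in 9 (12%), against 1.403%. Both strands were searched, and 0 of the 75 windows had matches of different cores that overlapped. Stretches before the RefSeq start of 7 members named below are shown 5′ to 3′ on the gene's strand, with a core or its reverse complement in capitals. All 30 bases shown for Ndufa8, its NRF1 core included, lie in exons of another annotation, GENCODE M21. The other stretches shown hold no bases of such exons. In their whole windows Ndufa8 held the NRF1 core, Sdhd and Uqcrh the ETS core, and Cox6a1 and Uqcr11 both, while Cox7c and Cox8b held none of the 3.
Ndufa8, chr2:36049339-36049368, minus strand: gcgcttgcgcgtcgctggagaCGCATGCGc
Cox6a1, chr5:115349050-115349129, minus strand: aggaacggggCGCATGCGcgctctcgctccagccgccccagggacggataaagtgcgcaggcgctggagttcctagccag
Sdhd, chr9:50603878-50603907, minus strand: accgtctcctgcCTTCCGGttcacgcttca
Uqcr11, chr10:80406845-80406924, minus strand: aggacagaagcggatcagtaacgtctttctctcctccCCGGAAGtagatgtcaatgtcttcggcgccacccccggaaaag
Uqcrh, chr4:116075072-116075151, minus strand: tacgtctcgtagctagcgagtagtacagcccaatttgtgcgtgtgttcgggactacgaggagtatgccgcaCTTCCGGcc
Cox7c, chr13:86046905-86046984, minus strand: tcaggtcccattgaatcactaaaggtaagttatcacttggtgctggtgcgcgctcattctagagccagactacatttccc
Cox8b, chr7:140900447-140900526, minus strand: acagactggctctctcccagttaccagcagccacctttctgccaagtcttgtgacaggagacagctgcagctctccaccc

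Over the whole series, depth per cell was 6985 to 60218 UMIs, with medians of 21280 in control and 28963 in GAP cells. The 10 markers of hair cells summed to 253 CPM in control and 4714 CPM in GAP cells, all 10 being called higher by the rule given below. The 10 markers of supporting cells summed to 11010 to 13098 CPM by letter. Of the 8 measured, 2 were called higher and 4 lower in GAP cells, against 21.1% and 12.9% of all measured genes. The median log2 ratio of these 8, GAP over control, was -0.69. Markers of other cell types differed between letters too: 6 endothelial and pericyte markers (2 at 0) summed to 0.992 to 154.8 CPM, 5 erythroid markers (1 at 0) to 0 to 178.1 CPM with the highest in C, and 5 fibroblast markers (0 at 0) to 128.7 to 358.4 CPM with the highest in A. Leukocyte markers summed to 0.496 to 25.7 CPM (1 of 6 at 0), Schwann and satellite glia markers to 310 to 496 CPM (0 of 6 at 0) and neuron markers to 0 to 34.1 CPM (2 of 6 at 0), and their part in the subunit levels was not tested. The authors placed 341 of the cells in 9 clusters, used here with their names and spellings. Reprogrammed Hair Cells and Reprogammed Sup Cells 1 held GAP cells only.

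The summed level of nuclear subunits was higher in both GAP letters than in both control letters. That of mitochondrially encoded subunits was lower in pooled GAP cells, but close to letter A (ratios 0.984 in C and 0.994 in D). The summed nuclear level was 7231 CPM in letter A, 6428 in B, 8211 in C and 8474 in D. Both GAP letters were above both control letters, and the control letters differed from each other by nearly as much as A differed from C. The pooled levels were 8330 CPM for GAP and 6826 CPM for control, a ratio of 1.22 (95% interval 1.202 to 1.239), and the pairings ran from 1.14 to 1.32. GAP cells were deeper, and within control and GAP cells the summed nuclear level ranked with UMIs per cell (Spearman's rho 0.37 and 0.32 over 180 cells each, as a description). With cells thinned to 8000 UMIs the ratio was 1.21. Thinning keeps the expected share of nuclear subunits in a cell, so it cannot show the part of depth, which was not tested.

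**Figure D1:**
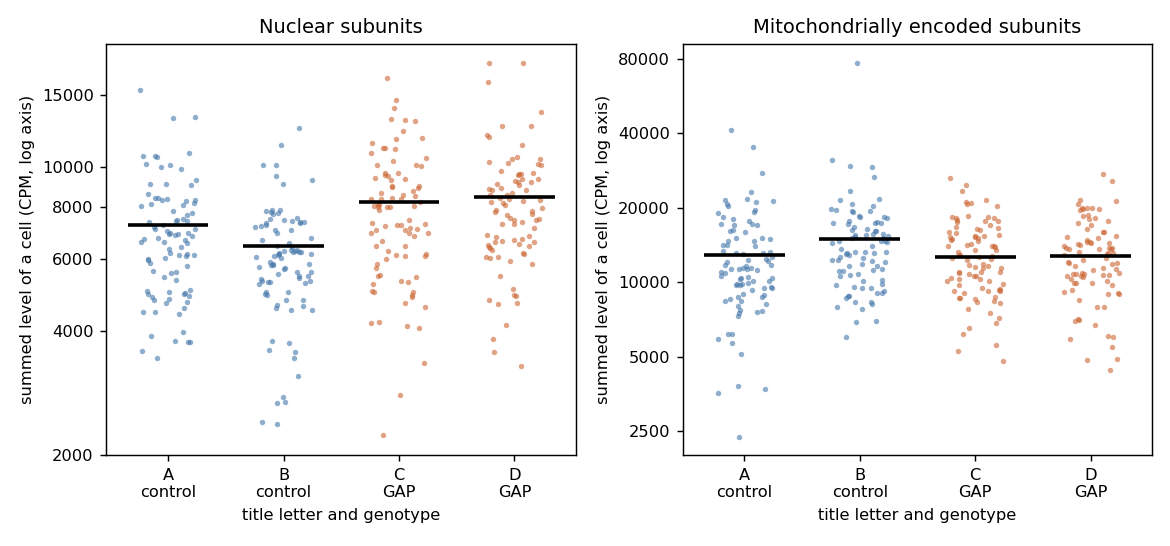
Summed level of nuclear subunits (left) and of mitochondrially encoded subunits (right) in each of the 360 cells, in CPM on a log axis, by title letter, with control cells in blue and GAP cells in orange. Black lines are the levels pooled over a letter's cells; the nuclear lines of C and D (8211 and 8474) lie above those of A and B (7231 and 6428), and single cells of all letters overlap.

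The mitochondrial sum was 12880 CPM in A, 14977 in B, 12677 in C and 12802 in D, so that letter B stood above the others. Pooled control cells had 13937 CPM and pooled GAP cells 12734 CPM, a ratio of 0.914 (0.904 to 0.924), with pairings from 0.846 to 0.994. This sum turned on mt-Co1, the catalytic subunit of complex IV, with 70530 of the UMIs and a ratio of 0.851 (0.839 to 0.864): without it the ratio was 1.004, and the median of the 7 measured mitochondrial members corresponded to 1.01. The ribosomal RNAs of mitochondria, which are no members, had a ratio of 0.873 (0.866 to 0.880).

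Counted gene by gene, 15 of the 80 measured members were called higher in GAP cells and 2 lower, which here means at least 1.5-fold apart after adding 1 CPM, with the same direction in all 4 pairings. The same rule called 21.1% of all 10152 measured genes higher and 12.9% lower. The members' share called higher was not above that of all genes, so this count is no result about the members. The members' median log2 ratio was 0.26, against 0.10 for all measured genes, and 60 of the 80 (75%) were above 0, against 56.7% of all measured genes. Without letter B the count of members called higher was 9, against 23.8% of all measured genes, and without letter A it was 21, against 26.6%. Cox5a, Cox8b and Sdhd reached 10 CPM in GAP cells only, so they could only be called higher. Ndufs1 reached it in control cells only and could only be called lower.

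Short genes as a group also stood higher in GAP cells. Measured genes with under 1000 bases of exon, members included, had a median log2 ratio of 0.29 (205 genes), and those of 1000 to 2000 bases 0.18 (835 genes), against 0.08 for both 2000 to 4000 and 4000 to 8000 bases and 0.12 for 8000 bases or more. The nuclear members had medians of 0.30 (18 genes), 0.35 (26 genes), 0.22 (20 genes) and 0.29 (8 genes) in the first 4 classes, each above that of all genes of the class, though barely in the first, and -0.65 for Ndufs1 alone in the last. Their shares at least 1.5-fold higher, here without the condition on letters, were 27.8%, 26.9%, 15% and 0% in the first 4 classes. All genes of these classes had larger shares, 31.2%, 27.9%, 23.2% and 21.6%. Of 18 cytosolic ribosomal protein genes, 12 were called higher and 0 lower, with a median of 0.71. The part of gene length in the members' levels was not tested.

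**Figure D2:**
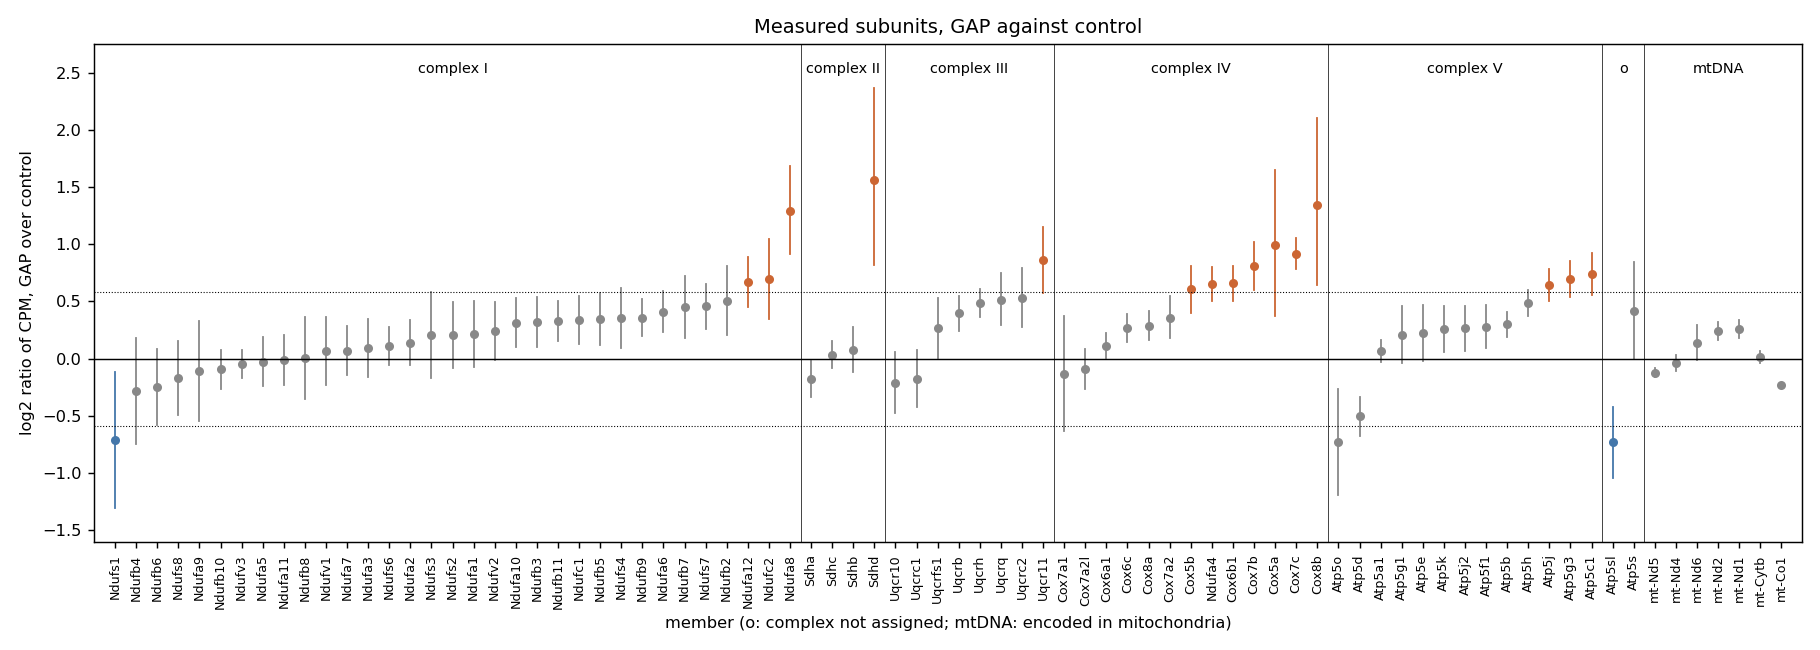
Log2 ratio of CPM, GAP over control, for the 80 measured members, grouped by complex and ordered by ratio, with 95% counting intervals as vertical lines. Orange marks the 15 members called at least 1.5-fold higher, blue the 2 called lower, grey the rest, and dotted lines 1.5-fold either way; 7 of the orange points are in complex IV.

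Complex I, the NADH dehydrogenase, had 35 nuclear members. Of the 33 measured, 3 were called higher and 1 lower, and their log2 ratios had a median of 0.20. Counts of called members by complex, here and below, stand beside 21.1% of all measured genes higher and 12.9% lower. Ndufa8, an accessory subunit, was at 16.1 (A) and 20.8 CPM (B) in control and at 43.3 (C) and 47.6 CPM (D) in GAP, the order kept below. The letters of the 2 genotypes did not overlap, and the ratio was 2.45 (1.88 to 3.22). Ndufa12, another accessory subunit, was at 61.5 and 65.9 CPM against 101.4 and 100.98 CPM, a ratio of 1.59 (1.37 to 1.85). Ndufc2, a small membrane subunit, had a ratio of 1.62 (1.27 to 2.07). Its log2 ratios over A and B were 0.71 and 1.04 in C, but 0.25 and 0.57 in D, under the fold called. Ndufs1, the large core subunit that carries iron-sulfur clusters, was at 13.6 and 14.4 CPM against 8.5 and 8.6 CPM, a ratio of 0.613 (0.406 to 0.921). It rests on 46 UMIs in GAP and 56 in control cells, and in cells thinned to 8000 UMIs its log2 ratio was 0.63, in the other direction.

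Complex II, succinate dehydrogenase, was at the same summed level in both genotypes, 508 CPM in control and 510 CPM in GAP (ratio 1.004, 0.948 to 1.06). Sdha, the flavoprotein that oxidises succinate, was at 158.2 CPM in control and 139.8 CPM in GAP, with letter D (152.7) above letter A (141.1), so that the letters overlapped. Sdhb and Sdhc, the iron-sulfur subunit and a membrane anchor, had ratios of 1.06 (0.921 to 1.21) and 1.02 (0.944 to 1.11). Sdhd, the other membrane anchor, was called higher also at 2-fold (with Ndufa8 and Cox8b, 3 of 80 members, against 12.4% of all measured genes; 0 members and 6.12% of genes were lower), but on 94 UMIs: it was at 6.6 and 3.0 CPM against 7.5 and 21.8 CPM. Letter C lay close to letter A. The ratio was 2.94 (1.76 to 5.16), and the log2 ratio 1.38 with 1 CPM added, the scale that the calls use. On that scale the ratio without letter D was 1.48, which is under the fold called.

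Complex III, the cytochrome bc1 complex, had 8 nuclear members, all measured. Of these 1 was called higher and 0 lower, the median log2 ratio was 0.44 and the ratio of sums 1.30 (1.24 to 1.37). Uqcr11, its smallest subunit, was at 41.3 and 30.2 CPM against 60.4 and 70.2 CPM, a ratio of 1.82 (1.49 to 2.22). Uqcrh, the hinge protein at the cytochrome c side, was at 240.9 and 176.98 CPM against 286.3 and 300.1 CPM, a ratio of 1.402 (1.29 to 1.53). Uqcrq and Uqcrb had ratios of 1.43 (1.22 to 1.68) and 1.32 (1.18 to 1.46), also below the fold called. mt-Cytb, the only mitochondrial subunit of this complex, was at 1335 and 1481 CPM against 1429 and 1417 CPM, and the letters overlapped.

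Complex IV, cytochrome c oxidase, had nuclear members that were higher and a measured mitochondrial member, mt-Co1, that was lower in GAP cells. Its 20 nuclear members summed to 1550 CPM in control and 2097 CPM in GAP, a ratio of 1.353 (1.311 to 1.396). Of 13 measured, 7 were called higher and 0 lower (Cox5a, Cox5b, Cox6b1, Cox7b, Cox7c, Cox8b and Ndufa4), against 21.1% and 12.9% of all measured genes. The median log2 ratio was 0.60. Over letter A alone, Cox5a (110 UMIs) had log2 ratios of 0.17 in C and 0.63 in D, and Cox5b 0.41 and 0.29. All of these but the 0.63 are under the fold called. Cox7c, a small membrane subunit, was at 152.2 and 168.6 CPM against 303.4 and 302.1 CPM, a ratio of 1.89 (1.72 to 2.07), and it ran from 1.79 to 1.98 when each letter was left out. Cox7b was at 71.1 and 64.9 CPM against 127.3 and 109.6 CPM, a ratio of 1.75 (1.52 to 2.03). Ndufa4, first described in complex I and later found in complex IV, had a ratio of 1.57 (1.42 to 1.74), or 1.49 without letter D. Cox6b1, on the cytochrome c side, was at 153.2 and 105.1 CPM against 204.4 and 202.4 CPM, a ratio of 1.58 (1.42 to 1.76), or 1.33 without letter B. These values without a letter, here and below, are on the scale with 1 CPM added that the calls use, and both are under the fold called.

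Several complex IV subunits exist as isoforms, and in the Cox6a, Cox7a and Cox8 groups the muscle isoforms had few or no UMIs. Cox6a1, the liver-type isoform, was at 299.7 CPM in control against 324.1 CPM in GAP (1.08, 1.004 to 1.17), while Cox6a2, the muscle isoform, was listed at 0. Cox7a2 was at 96.5 against 123.7 CPM (1.28, 1.13 to 1.46), the related Cox7a2l, which takes part in supercomplex assembly, at 119.2 against 111.99 CPM, and Cox7a1, the muscle isoform, at 15.7 against 14.4 CPM. Cox8a was at 212 against 259 CPM (1.22, 1.12 to 1.33). Cox8b, its heart and skeletal muscle isoform, was at 8.1 and 3.0 CPM against 10.9 and 17.6 CPM, a ratio of 2.54 (1.56 to 4.30), but in 22 cells only and with 17.5% of its 97 UMIs in 1 cell. Without a letter it ran from 1.65 (without B) to 3.77 (without A), and was 1.83 without D, so that it is under 2-fold without B or D. Summed markers of striated muscle, a list of 15 genes, were 7.25 CPM in control and 99.3 CPM in GAP, of which Pvalb, also a hair cell marker, was 81.6 CPM. Acta1, Myh1, Myh7 and Tnnt3 were at 0, and the part of muscle RNA in the Cox8b level was not tested.

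Isoforms known from testis or from few tissues were close to the limit of detection. Cox4i2, the isoform known from lung and from low oxygen, had 32 UMIs in 12 GAP cells (4.1 CPM in C and 8.2 CPM in D) and 0 in control cells, at least 7.95-fold higher against the limit of 3 counts over the genotype. Its highest level was 38.02 CPM in the 20 cells of Reprogrammed Supp Cells 2, where endothelial and pericyte markers summed to 23.4 CPM and erythroid markers to 1173 CPM. Cox6b2, a testis isoform, had 10 UMIs in 5 GAP cells and 0 in control cells. The same comparison with 3 control counts gave 2.48-fold, and the lower limit of the counting interval was 1.67. Cox7b2 and Cox8c, also known from testis, and Ndufa4l2 were listed at 0.

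Complex V, the ATP synthase, had 15 nuclear members, of which 13 were measured. Of these 3 were called higher (Atp5c1, Atp5g3 and Atp5j) and 0 lower, and the ratio of sums was 1.23 (1.195 to 1.266). The catalytic head had the most UMIs: the alpha subunit Atp5a1 was at 442.0 and 379.2 CPM against 438.9 and 419.1 CPM, and the beta subunit Atp5b at 323.6 and 260.8 CPM against 380.9 and 332.9 CPM (1.23, 1.14 to 1.32). Atp5c1, the gamma subunit that forms the central stalk, had a ratio of 1.67 (1.47 to 1.89). Its log2 ratios over A and B were 0.94 and 0.90 in C, but 0.48 and 0.44 in D, under the fold called. Atp5j, coupling factor 6 of the peripheral stalk, was at 164.3 and 150.2 CPM against 246.4 and 245.5 CPM, a ratio of 1.57 (1.42 to 1.72) that was 1.49 without letter B. Atp5h, also of that stalk, had 1.398 (1.29 to 1.51). The proton-carrying c subunit is encoded by 3 genes for 1 mature protein: Atp5g3 was at 120.2 against 194.9 CPM (1.62, 1.45 to 1.81; 1.37 without letter B), Atp5g1 at 55.5 against 64.1 CPM and Atp5g2 at 4.50 against 8.01 CPM, control first. Atp5o, the subunit that ties the stalk to the head, was at 11.1 and 33.7 CPM against 13.6 and 13.6 CPM: its ratio of 0.605 (0.438 to 0.833) rested on letter B, and without that letter it was 1.21. Atp5sl, a gene of the Atp5 rows now named Dmac2 and tied to complex I assembly, was lower in both GAP letters, at 47.9 and 48.1 CPM against 33.4 and 23.4 CPM (0.602, 0.484 to 0.748; 0.703 without letter D).

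**Figure D3:**
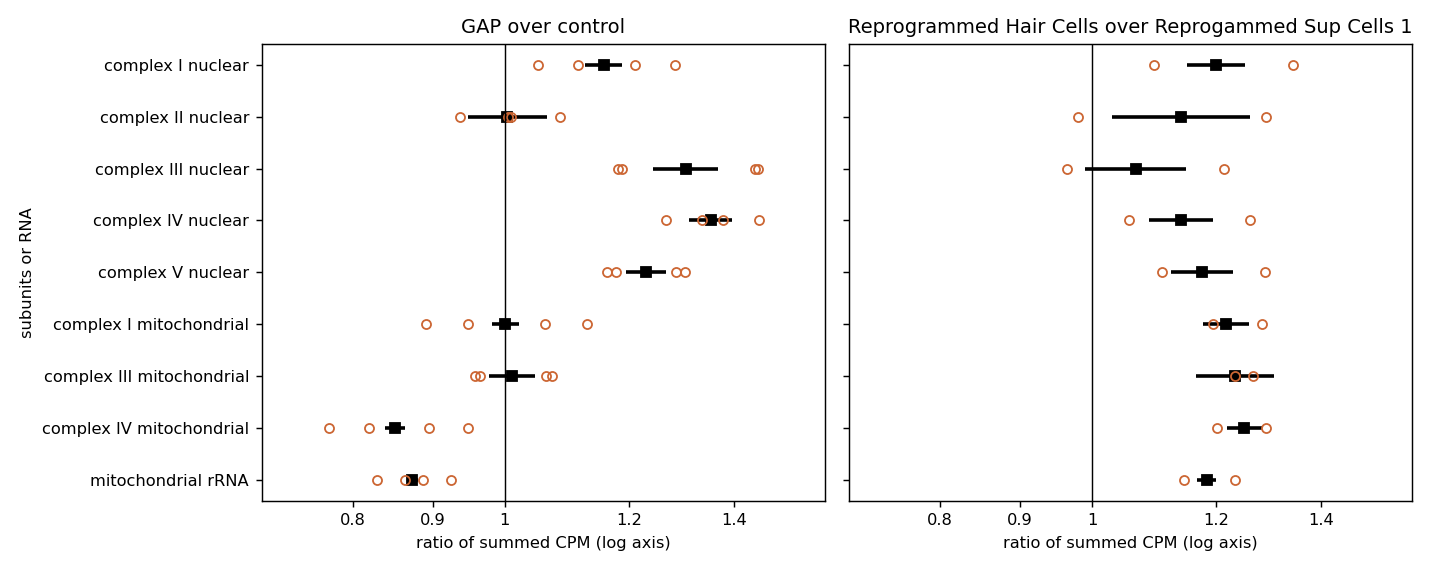
Ratio of summed CPM for each complex on a log axis, GAP over control (left) and Reprogrammed Hair Cells over Reprogammed Sup Cells 1 (right), with squares for pooled ratios, lines for 95% counting intervals and circles for the letter pairings (4 on the left, letters C and D on the right). On the left the nuclear sums of complexes I, III, IV and V lie above 1 in all 4 pairings and the mitochondrial sum of complex IV below 1; on the right all 3 mitochondrial sums lie above 1 in both letters.

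Of the 13 mitochondrially encoded members, 7 were measured, 5 were listed at 0 and mt-Nd3 had 1 UMI. Per kilobase of exon, mt-Co1 stood at 4873 CPM, mt-Cytb at 1239, mt-Nd5 at 1229, mt-Nd1 at 617, mt-Nd2 at 574.5, mt-Nd4 at 524 and mt-Nd6 at 291 CPM. The nuclear members nearest to them on this scale were Cox6a1 (447) and Cox8a (386), which lay between mt-Nd4 and mt-Nd6, and Cox6b1 (242), below mt-Nd6. Members with shared sequence were checked by the share of their 50-base words found in annotated transcripts of other genes (GENCODE M21, either strand). The 5 members mt-Co2, mt-Co3, mt-Atp6, mt-Nd4l and mt-Nd3 shared 97.99% to 100% of their words, mostly with unprocessed pseudogenes on chromosome 1, and mt-Nd4 and mt-Co1 shared 62.2% and 51.1%. mt-Atp8 shared 0% of its words and was also at 0. It overlaps mt-Atp6 on the same strand over 21.1% of its exon bases, which the word count does not show. Among nuclear members, Cox4i1, the main isoform of a core complex IV subunit, and Ndufa13 were also listed at 0, with 6.65% and 28.5% of words shared; they overlap Emc8 and Tssk6 in the annotation. Levels are uncertain to the extent that reads were split between copies or overlapping genes. Among others this holds for mt-Nd4 and mt-Co1, and for Atp5o (41.6% of words shared), Atp5g2 (38.4%), Ndufb6 (31.6%), Uqcrb (25.5%), Cox7c (22.1%) and Atp5h (19.9%). mt-Nd6 lies on the strand opposite to the other mitochondrial members and overlaps the end of mt-Nd5, and use of strand in counting is not stated. Nothing is read from these zeros about the cells, and their cause was not tested.

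A stretch of 60 bases from the middle of mt-Co2 shows the kind of identity involved, since it is found without a mismatch in the chromosome 1 pseudogene Gm28661 and not in mt-Co1, mt-Cytb or mt-Nd1. It lies at chrM:7325-7384 on the plus strand of GRCm38, in the coding exon.
mt-Co2: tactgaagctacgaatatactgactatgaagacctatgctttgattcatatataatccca

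**Figure D4:**
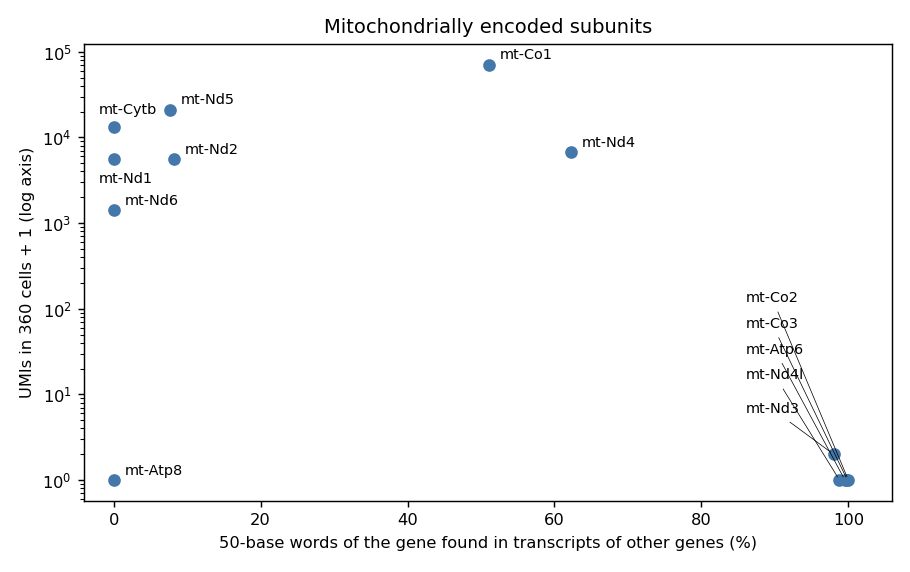
UMIs over all 360 cells (plus 1, log axis) of the 13 mitochondrially encoded members against the percentage of their 50-base words found in transcripts of other genes. The 5 members at 97.99% or more have 0 or 1 UMI, mt-Atp8 has 0 UMIs with 0% shared, and mt-Co1 has 70530 UMIs with 51.1% shared.

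Between clusters, the summed nuclear level was 9321 CPM in Reprogrammed Hair Cells and 9212 in WT Cells 2, the highest 2, then 8055 in Reprogammed Sup Cells 1 and 7990 in Reprogrammed Unknown 2. It was 6713 in Reprogrammed Supp Cells 2, 6549 in Reprogrammed Unknown 1, 6265 in WT Cells 1, 5870 in WT Cells 3 and 5667 in WT Supp Cells. The middle 50% of cells overlapped between neighbours in this order, with 7213 to 10515 CPM in Reprogrammed Hair Cells and 6683 to 10479 CPM in WT Cells 2. The mitochondrial sum was highest in WT Cells 2, at 18525 CPM, followed by Reprogrammed Hair Cells at 14535 CPM, and lowest in WT Cells 3, at 10257 CPM. The members may be among the genes that the clusters were made from, so these levels are a description.

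**Figure D5:**
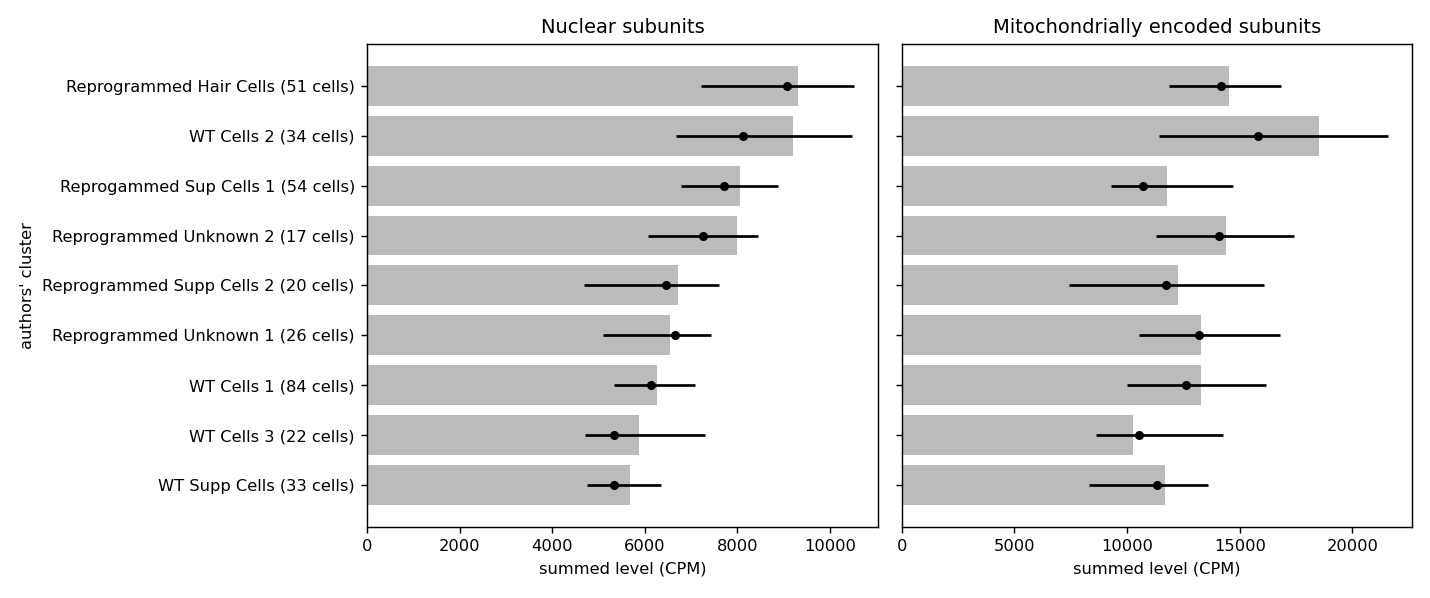
Summed CPM of nuclear (left) and mitochondrially encoded (right) subunits in the authors' 9 clusters, ordered by the nuclear level, with bars for the pooled level, points for the median cell and lines for the middle 50% of cells. Reprogrammed Hair Cells and WT Cells 2 have the longest nuclear bars (9321 and 9212 CPM) and WT Cells 2 the longest mitochondrial bar (18525 CPM).

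Many members peaked in the same 2 clusters. Of the 80 measured members, 33 had their highest level in WT Cells 2 and 19 in Reprogrammed Hair Cells, against 10.1% and 11.7% of all measured genes, and all 7 measured mitochondrial members were among the 33. WT Cells 2 held 34 cells, 29 of them control. Fibroblast markers, a list of 5 genes with none at 0, were summed to 938 CPM there and to 13.3 to 468 CPM in the other clusters, and their part in its subunit levels was not tested. Within WT Cells 2 the summed mitochondrial level ran from 3689 to 77009 CPM over cells, with a median of 15815 CPM.

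Reprogrammed Hair Cells and Reprogammed Sup Cells 1 share letters C and D, so that they can be compared within a letter; their median depths were 28271 and 34991.5 UMIs per cell. Of the 10 hair cell markers, 7 were called higher in the first and 2, Ccer2 and Calb2, lower, while their sum was lower, 4460 against 7026 CPM. Nuclear subunits summed to 10142 CPM against 8001 CPM in letter C (20 and 28 cells) and to 8782 CPM against 8116 CPM in letter D (31 and 26 cells). The pooled ratio was 1.16 (1.13 to 1.19), with 1.27 in C and 1.08 in D. The mitochondrial sum was 14873 CPM against 12027 CPM in C and 14314 CPM against 11436 CPM in D, a pooled ratio of 1.24 (1.21 to 1.26) that was 1.24 and 1.25 within the letters. Both sums were thus higher in the hair cell cluster in both letters, and mitochondrial ribosomal RNA had a ratio of 1.18 (1.167 to 1.199). Markers of other cell types differed between the clusters as well: fibroblast markers summed to 238.1 against 54.7 CPM (0 of 5 at 0 over all cells), neuron markers to 64.4 against 3.94 CPM (2 of 6 at 0), striated muscle markers to 162.7 against 54.7 CPM (4 of 15 at 0) and endothelial and pericyte markers to 117.7 against 212.4 CPM (2 of 6 at 0). The striated muscle list holds Pvalb, also a hair cell marker, and 1 of its 15 genes was measured in this comparison. The part of all these markers in the subunit levels was not tested.

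Gene by gene, 8 of 82 measured members were called higher in the hair cell cluster and 2 lower, against 17.4% and 15.2% of all 10263 measured genes; both shares of the members are below these. The median log2 ratio was 0.24 for the members and 0.05 for all measured genes. Those called higher were Ndufs3, Ndufb2, Ndufa5, Ndufa9, Ndufa12 and mt-Nd6 of complex I, and Atp5g2 and Atp5j2 of complex V. Ndufa12 was at 145.4 CPM against 81.7 CPM (1.78, 1.43 to 2.21), and Ndufb2 at 74.8 CPM against 45.1 CPM (1.66, 1.23 to 2.24). Log2 ratios in letters C and D were 1.475 and 0.13 for Ndufb2, 1.49 and 0.05 for Ndufa5, and 1.26 and 0.44 for Ndufa12. They were 0.41 and 0.84 for Ndufa9, 0.35 and 0.72 for Atp5g2, and 0.56 and 0.58 for Ndufs3. Only Atp5j2 (0.79 and 0.69) and mt-Nd6 (0.73 and 0.59) were above the fold called in both letters. The counting intervals of Ndufs3 and Atp5g2, and of Sdhd, which was called lower (0.592, 0.280 to 1.19), included 1. Cox7a1, the muscle isoform, was the only member called at 2-fold, as lower, against 9.87% of all measured genes higher and 8.41% lower, with 4 UMIs against 31 (2.77 against 17.5 CPM, ratio 0.159, 0.0407 to 0.448). Cox8b went the other way in the pooled cells, at 33.2 CPM against 12.4 CPM, but its log2 ratio was -0.13 in letter C and 3.67 in letter D, so it was not called.

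Set against control cells with a cluster, the hair cell cluster had a summed nuclear level of 9321 against 6816 CPM, a ratio of 1.37 (1.339 to 1.396) with pairings from 1.22 to 1.58. The mitochondrial ratio was 1.05 (1.03 to 1.06), with pairings from 0.957 to 1.16 that lay on both sides of 1, and scaling by TMM turned it to 0.945. Of 81 measured members 22 were called higher and 2 lower, against 22.1% and 17.9% of all 10331 measured genes. At 2-fold, 7 were called higher, namely Ndufa8, Ndufa12, Ndufb2, Uqcr11, Cox7c, Cox8b and Atp5g2, and Cox7a1 and Atp5sl lower; the 2-fold rule called 14.2% and 11.3% of all measured genes. Among those called at 2-fold, Cox8b and Atp5g2 were under 10 CPM in control cells (5.52 and 4.52 CPM), so they could only be called higher. Atp5g2 rested on 15 against 18 UMIs (ratio 2.3, 1.08 to 4.83). Cox7a1, with 4 against 63 UMIs, was under 10 CPM in the hair cell cluster and could only be called lower. This comparison shares its control cells and its GAP cells with the comparison of genotypes and its hair cell cluster with that inside GAP.

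Where a cluster held cells of both genotypes, the nuclear ratio did not have 1 direction. In Reprogrammed Unknown 1 (13 cells of each genotype) control cells had 7005 CPM of nuclear subunits and GAP cells 6116 CPM, a ratio of 0.873 (0.823 to 0.926). Its GAP cells were 11 in letter C and 2 in letter D, so nothing is read from its letter pairings. In WT Cells 2 (5 GAP and 29 control cells) control cells had 8972 and GAP cells 10702 CPM, a ratio of 1.19 (1.13 to 1.26), with 1 GAP cell in letter C and 4 in letter D. Reprogrammed Unknown 2 (10 and 7 cells) had 0.930 (0.871 to 0.994), with 1 of its control cells in letter B. The other clusters of both genotypes held 2 to 4 GAP cells each, with ratios of 1.13 (1.05 to 1.21) in WT Cells 1 (4 GAP cells), 0.964 (0.846 to 1.09) in WT Supp Cells (4) and 1.52 (1.36 to 1.69) in WT Cells 3 (2).

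Genes that assemble, feed or control the machinery were taken as lists, whose counts stand beside 21.1% of all measured genes higher, 12.9% lower and a median of 0.10. In this and the next paragraph, single levels per genotype are given with GAP first, and levels by letter with control first. Of the 20 measured assembly factors of complexes II to V, 8 were called higher and 0 lower, and the median log2 ratio was 0.38. Among them were Tmem70, which assembles ATP synthase (39.9 against 15.3 CPM, 2.62, 1.96 to 3.54), and Uqcc2 of complex III (16.4 against 5.75 CPM). Of 10 complex I assembly factors 3 were called higher and 0 lower, with a median of 0.14, led by Ndufaf2 (21.1 against 8.997 CPM). Of 12 mobile carriers and related genes 2 were called higher, Cycs, which encodes cytochrome c (21.6 against 11.5 CPM), and Ndufab1, the acyl carrier protein (51.8 against 27.99 CPM), with a median of -0.09. Of 22 measured genes of the tricarboxylic acid cycle and pyruvate dehydrogenase 2 were called higher, Idh3a and Fh1, and 1 lower, Idh2 (34.3 against 58.7 CPM).

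Lists of regulators and glycolytic genes had members called in both directions or lower, with shares called lower near the 12.9% of all measured genes. Of 16 measured genes of mitochondrial biogenesis and gene expression, 3 were called higher and 3 lower, with a median of -0.15. Ppargc1a, a coactivator of mitochondrial biogenesis, was at 74.1 and 95.2 CPM against 31.1 and 36.1 CPM, a ratio of 0.394 (0.327 to 0.473). Esrrb, an orphan nuclear receptor, was at 21.7 and 46.1 CPM against 2.73 and 0 CPM. Gabpb1, a subunit of GABP, was at 30.8 CPM in GAP against 13.8 CPM in control cells (2.24, 1.64 to 3.09). Mterf3, a factor of mitochondrial transcription, was at 31.3 against 13.3 CPM in the same order. Of 18 glycolytic genes 0 were called higher and 3 lower, with a median of -0.05: Hk2, which phosphorylates glucose (13.6 against 37.2 CPM), Aldoc (63.5 against 155.5 CPM) and Pgam1. Of 16 genes of mitochondrial import and the outer membrane 3 were called higher and 1 lower (median 0.32), of 10 of uncoupling and antioxidant defence 1 and 1 (0.20), and of 12 of cristae and the inner membrane 3 and 0 (0.23).

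Members with and without a promoter core had medians that lay close together. The 7 measured members with an NRF1 core had a median log2 ratio, GAP over control, of 0.26 and the 56 without 0.28. With an ETS core it was 0.29 (15 members) and without 0.27 (48 members), and with any of the 3 cores 0.26 (25 members) and without 0.29 (38 members).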

How the data were processed

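Single cochlear cells (360, 180 of each genotype) were sequenced by SMART-MATQ. The deposited matrix holds UMI counts per gene and cell, made by the authors with STAR, HTSeq and build mm10, per the submitters' processing notes; the sources used here give no versions. Clusters are the authors' own, from the deposited annotation, which places 341 cells and leaves 19 without a cluster. Doublets were not called, and 0 pairs of cells had identical counts. From the counts, UMIs were pooled over the cells of a set and divided by all UMIs of that set (CPM). Intervals are exact, at 95%, and cover counting error only (Poisson for levels, conditional binomial for ratios). A gene was measured at 10 CPM in either set, and called at 1.5-fold on log2(CPM + 1) with the same direction in every letter pairing. No model was fitted, since a genotype is 1 sample. The members, lists and motifs were chosen with earlier results of these data known.

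Named members are the 4 with most UMIs of each complex, the isoform groups and those called at 2-fold in any comparison; from each list, the 2 highest and 2 lowest. Others were named after their values were seen (the remaining called members, Atp5o, and those of shared sequence). Alternatives were scaling by TMM (edgeR 4.0.16) or median of ratios, means per cell, thinning to 8000 UMIs, other minima, pseudocounts and folds, and leaving out a letter, the cell or the member with most UMIs, or cells without a cluster. The ratio script was tested on simulated counts. Python 3.11.15, numpy 2.4.6, pandas 2.3.3, scipy 1.17.1 and matplotlib 3.10.9 were used. Word sharing and exon lengths used GENCODE M21, and promoters RefSeq on GRCm38.p6.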

Additional observations from a re-analysis of the deposited data

Results flagged for a closer look

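Pseudogenes that share sequence with members, and are no members themselves, had UMIs over the 360 cells: 186 for Gm10250 (shared with Atp5h), 56 for Gm10039 (Atp5g1), 38 for Gm4943 (Ndufa11), 37 for Gm4076 (mt-Nd5), 21 for Gm6969 (Cox7a2l) and 18 for Gm12231 (Atp5f1). Gm8722 (Atp5c1) had 14, Gm12251 (Ndufs3) and Gm29216 (mt-Co1) 9 each, Uqcrh-ps1 (Uqcrh) 8 and Gm16418 (Uqcr11) 4.

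The summed nuclear level, GAP over control, was 1.193 in WT Cells 2 and 0.8731 in Reprogrammed Unknown 1. All 4 letter pairings lie above 1 in the first and below 1 in the second, but WT Cells 2 held 1 GAP cell in letter C and Reprogrammed Unknown 1 held 2 in letter D, so the pairings with these letters rest on 1 or 2 cells. The difference between the clusters was not tested.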

How the results depend on the processing

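No paired analysis was possible between genotypes because each title letter holds cells of 1 genotype and the labels pair no cell with another; the 2 GAP clusters were compared within letters. Among values that answer a comparison, 65 held, 39 moved and 6 reversed. Of the 41 named members, 12 changed sign under at least 1 alternative, 10 of them with a letter left out; 1 of the 12, Ndufs1, was a called member (log2 ratio 0.63 when thinned). The nuclear ratio of GAP over control was 1.165 by TMM, 1.156 by median of ratios and 1.196 over members sharing under 1% of their words, and 1.152 (without B) to 1.296 (without A) with a letter left out. The mitochondrial ratio was 0.8721 and 0.8652 under the same scalings, 0.933 as a mean per cell, 0.9318 thinned and 0.9432 without cells that have no cluster. It went above 1 without mt-Co1 (1.004), as the median of members (1.011) and over members sharing under 1% of words (1.064); leaving out a letter gave 0.8502 to 0.9887. Hair cell cluster over Reprogammed Sup Cells 1 gave 1.112, 1.099 and 1.185 for nuclear members by TMM, median of ratios and low sharing (1.082 to 1.268 by letter), and 1.189 and 1.175 for mitochondrial ones. Over control cells the hair cell cluster had nuclear ratios of 1.237 by TMM, 1.239 by median of ratios and 1.411 as a mean per cell (1.288 to 1.488 with a letter left out); these 2 scalings shift all genes by -0.14 on the log2 scale. Its mitochondrial ratio turned below 1 by TMM (0.9453) and median of ratios (0.9467), was 1.141 without mt-Co1, 1.18 as the median of members and 1.226 with low sharing, and 0.9718 (without A) to 1.132 (without B) with a letter left out. The count of members called higher was 12 by TMM, 10 by median of ratios and 11 thinned (18.8%, 18.4% and 21.6% of all genes), 3 at 2-fold, and 9 (without B) to 21 (without A) with a letter left out (23.8% and 26.6% of all genes). The count called lower was 1 as a mean per cell and without the top cell, 0 with 10 CPM added, 0 at a minimum of 50 CPM and 0 at 2-fold, and 2 to 3 with a letter left out. The sharing alternative and those of the last mitochondrial ratio were chosen after seeing the data. The causes were not tested. Members of few UMIs (Cox8b, Sdhd, Ndufs1, Cox7a1) are limited by depth.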
